A study of Homo sapiens with 12 samples.

Results

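The reverse construct was compared with the mCherry control in HCT116 cells, a long-established line from a human colorectal carcinoma that keeps an epithelial character. The comparison rests on 6 of the 12 libraries of polyA RNA, 3 labelled reverse and 3 labelled mCherry, with the 3 scramble and the 3 CR3 libraries set beside them where they place a value. All 4 groups were given doxycycline, which the labels write as 1 ug/ul, 48 before extraction with no unit, so no untreated cells show what the drug itself does. The submitters describe the cells as HCT116 clones induced to make CR3 or variants of it, CR3 being a peptide meant to disturb condensates. They do not say how many clones a group holds, and a difference between clones and an effect of a construct cannot be told apart here. The sources used here give no sequence for the reverse and scramble constructs, and expression of the constructs themselves was not analysed here. Of 63677 gene identifiers, 15015 reached 10 reads in at least 3 of the 6 libraries. Decimal marks lost in the deposited values had to be restored, and the 14742 genes without an ambiguous value by the rule given below were tested. This rule does not remove all doubt. In the genes tested, 84 values of the 6 libraries were read differently when restored without the group labels.

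Doxycycline is widely used to switch on genes placed behind a tetracycline-controlled promoter, and a fluorescent protein such as mCherry then shows what the switch and the production of a foreign protein do by themselves. Condensates are droplet-like gatherings of proteins and RNA without a membrane, and some of them collect transcription factors and coactivators at enhancers. A control version of a peptide is made to tell effects of its sequence from effects of making any peptide of that kind.

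The 6 libraries held 18562366 to 23566039 reads assigned to genes. Values below are normalized reads, that is, the read number divided by the size factor the authors used for the library. On the first principal component, with 49.6% of the variance, the mCherry libraries lay between -22.8 and -17.52 and the reverse libraries between 19.09 and 21.54. The second component, with 16.4%, set mCherry replicate 3 at -23.55, away from the other mCherry libraries at 10.55 and 10.15. The chi-square of read numbers per degree of freedom was 2.74 between mCherry replicates 1 and 2 and 8.2 and 9.83 between each of them and replicate 3, against 3.79 to 3.95 within reverse. No pair of libraries agreed within sampling noise, so each counted as 1 sample. The labels do not say whether they came from separate cultures, so p-values measure a spread between libraries that may be technical. This spread was estimated over all 12 libraries and moderated across genes. Markers of colon cancer epithelium were present in both groups, with 8 markers summing to 5.59e+04 to 6.281e+04 normalized reads in mCherry and 5.517e+04 to 5.923e+04 in reverse. EPCAM, a surface protein of epithelia, was between 4805 and 5430 in all 6, while VIL1, the brush border protein villin, did not exceed 2.523. The 8 markers of blood cells summed to 11.78 to 18.8 in mCherry and 14.39 to 26.59 in reverse, with PTPRC, CD3E and HBB at 0 in both. Those of endothelium summed to 18.14 to 35.33 and 16.19 to 28.12, with PECAM1 and CDH5 at 0. For the 8 of mesenchyme the sums were 776.7 to 1009 and 733.3 to 906, with LUM at 0 in mCherry and DCN at 0 in reverse, and for the neuronal ones 301.9 to 375.1 and 295.5 to 353.1, with STMN2, GAP43 and ELAVL4 at 0.

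**Figure D1:**
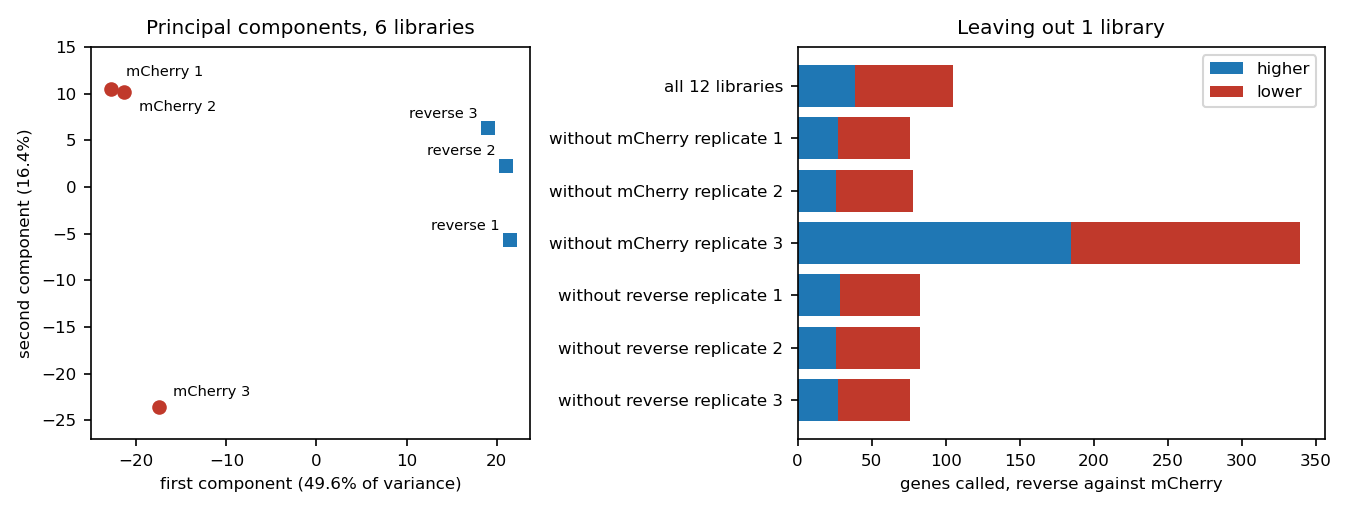
Left, the 6 libraries on the first and second principal components of log2(normalized reads + 1), in units of the component scores. Right, the number of genes called in reverse against mCherry with all libraries and with 1 library left out, split into higher and lower in reverse. The bar without mCherry replicate 3 reaches 339 genes, and the others lie between 76 and 105.

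Most transcripts did not pass the test between reverse and mCherry, and those with the largest changes were present in one group and nearly missing from the other. Transcripts such as DOCK2, TEK and UGT2B7 appeared in reverse cells, and others such as PIEZO2, VIPR2 and SLC26A3 had reads in all mCherry libraries and in no reverse library. Of 14742 genes tested with limma, 105 (0.712%) had an adjusted p under 0.05 and are called changed here, 39 higher (0.265%) and 66 lower (0.448%) in reverse. At an unadjusted p under 0.05 there were 1409 genes (9.56%), and in 1819 (12.3%) the 3 reverse libraries did not overlap the 3 mCherry libraries. The median log2 difference over all genes tested was -0.002. The number called depended on 1 library: without mCherry replicate 3 it was 339, with 185 higher and 154 lower, and 101 of the 105 were among them. Leaving out any other library of the 6 gave 76 to 83. It also depended on how lost decimal marks were restored: with powers of 10 chosen without the group labels, 49 genes were called, and 22 of the 57 calls lost were no longer tested.

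Large and small changes lay at different levels. Of the 39 higher genes, 28 were at least 2-fold higher, with reverse means of 10.9 to 268 normalized reads and a median mCherry mean of 1.06. The other 11 changed by 0.21 to 0.58 on the log2 scale and had reverse means of 535 to 7.85e+03. Among the 66 lower genes, 41 were at least 2-fold lower, with a median of 32 normalized reads in mCherry and 1.02 in reverse. The other 25 had log2 sizes of 0.27 to 0.99, and 10 of these were genes of the mitochondrial genome or a nuclear copy of one. In 8 higher genes no mCherry library held a read and in 17 lower genes no reverse library did. These passed the filter on low counts through the other group alone and so had to differ. A gene with under 10 reads in every library of 1 group, such as TEK, SI or ATP6V0A4, also passed through the other group alone. Its groups could not overlap, so the filter itself favoured a low p-value. Genes called took 0.125% (higher) and 1.68% (lower) of the reads in mCherry and 0.162% and 1.24% in reverse. In such bulk RNA, fewer cells that express a gene and less of its RNA in each cell cannot be told apart.

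**Figure D2:**
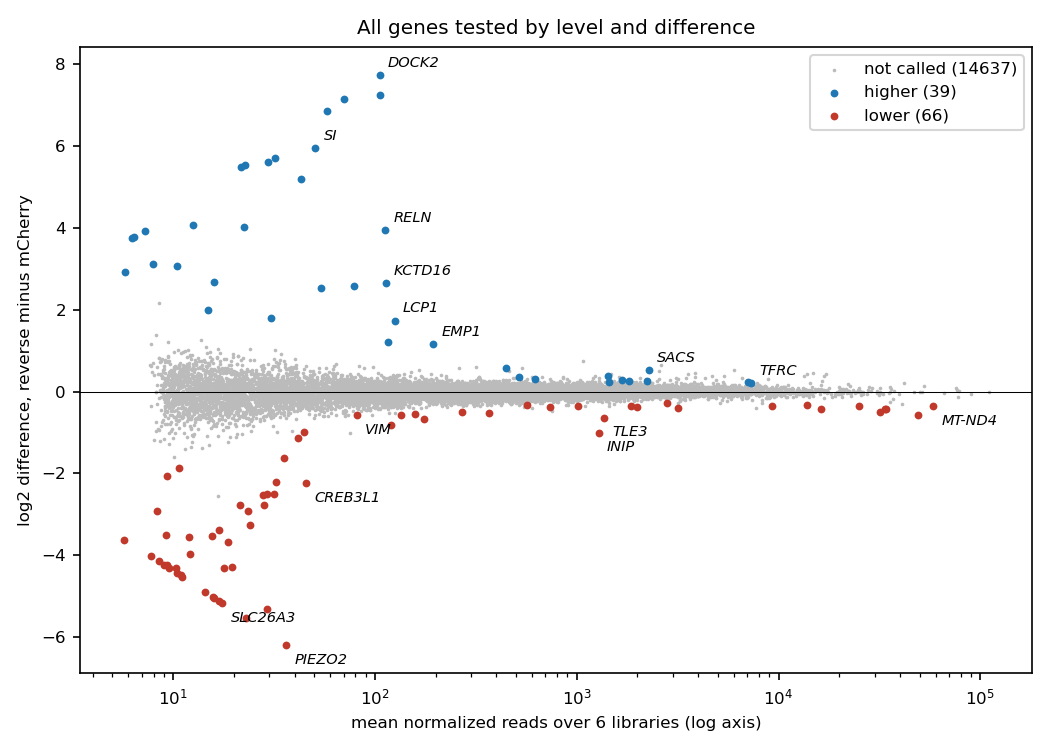
Each point is 1 of the 14742 genes tested, placed by its mean normalized reads over the 6 libraries (log axis) and by its log2 difference, reverse minus mCherry. Blue points are the 39 genes called higher and red points the 66 called lower. Changes over 2-fold lie mostly below 200 normalized reads, whereas called genes above 2000, such as MT-ND4 and TFRC, differ by less than 2-fold.

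The largest increase was in DOCK2 (ENSG00000134516, chromosome 5, 169637247 to 170083382 on GRCh38), a guanine nucleotide exchange factor for Rac best known from lymphocytes. DOCK2 had 246, 178 and 210.5 normalized reads in reverse replicates 1 to 3 and 0 in every mCherry library. Taking 3 reads as the floor of each mCherry library, it was at least 71.6-fold higher (limma adjusted p = 8.05e-10). TEK (ENSG00000120156, chromosome 9, 27109141 to 27230175), the endothelial receptor tyrosine kinase for angiopoietins, stood at 222, 169 and 246 in reverse and at 0, 1.68 and 0 in mCherry. As restored with the group labels, no library of one group came near the other. The ratio was 329, counting interval 90.7 to 2723 (95%, counting error only; adjusted p = 1.60e-08). Restored without the labels, TEK had 0, 200 and 0 reads in mCherry replicates 1 to 3 against 213, 165 and 273 in reverse, and was not called. The interval does not include this doubt. Of the 4 endothelial markers listed, PECAM1 and CDH5 were at 0 in all 6 libraries, VWF ran from 10.67 to 26.08 in mCherry and 11.25 to 22.91 in reverse, and KDR from 6.267 to 9.253 and 1.799 to 5.208. Their part in the result was not tested.

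Among receptors and secreted factors, TACR1, the receptor of substance P, had 41.7, 51.1 and 44.1 normalized reads in reverse. It had 0 in all mCherry libraries and, as restored with the group labels, was at least 15.4-fold higher (adjusted p = 3.25e-06). Restored without the labels, TACR1 had 4, 5 and 49 reads in reverse and was not tested. SFRP4, a secreted protein that binds Wnt ligands, was at 109, 75.7 and 68.4 in reverse against 1.04, 0.841 and 2.13 in mCherry, a log2 difference of 5.20 ± 0.53 (SE; adjusted p = 3.25e-06). Restored without the labels, its mCherry libraries held 100, 1 and 20 reads, and it was not called. RELN (ENSG00000189056, chromosome 7, 103471784 to 103989516) encodes reelin, an extracellular glycoprotein that guides neurons in the developing brain. It was the one gene among the 12 largest increases with more than 5 normalized reads in each mCherry library, at 10.4, 18.5 and 10.7, and rose to 195, 241 and 199 in reverse. The log2 difference was 3.94 ± 0.42 (adjusted p = 7.28e-06). Restored without the labels, RELN had 100, 220 and 100 reads in mCherry against 187, 236 and 221 in reverse, and was not called.

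Several higher genes encode enzymes of gut and liver. UGT2B7 (ENSG00000171234, chromosome 4, 69051363 to 69112987) and UGT2B4 are neighbouring members of the UDP-glucuronosyltransferase family, which attaches glucuronic acid to drugs, steroids and bile acids. UGT2B7 had 135, 152 and 136 normalized reads in reverse, UGT2B4 had 37.5, 44 and 49.5, and both were at 0 in every mCherry library. As restored with the group labels, they were at least 47.8-fold and 14.8-fold higher (adjusted p = 1.60e-08 and 1.04e-05). Their sequences are alike, and reads of one may have been counted for the other. Restored without the labels, UGT2B7 had 13, 149 and 151 reads in reverse and was not tested. ACADL, a mitochondrial acyl-CoA dehydrogenase of fatty acid oxidation, was at 53.1, 64.4 and 58.5 in reverse and had 1 read in mCherry, a ratio of 181, counting interval 32.1 to 7188. SI (ENSG00000090402, chromosome 3, 164978898 to 165078495), sucrase-isomaltase, the disaccharidase of the small intestinal brush border, stood at 110.4, 98.2 and 91.7 in reverse and at 0, 3.36 and 0 in mCherry. Its log2 difference was 5.95 ± 0.59 (adjusted p = 2.72e-06). Restored without the labels, SI had 0, 40 and 0 reads in mCherry. Its means were then 11.2 normalized reads in mCherry and 100 in reverse, so the size of the difference rests on how this value was restored.

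SI had a counterpart among the lower genes. SLC26A3 (ENSG00000091138, chromosome 7, 107765467 to 107803225), the chloride and bicarbonate exchanger of the colonic brush border, had 40.7, 29.4 and 35.2 normalized reads in mCherry and 0 in every reverse library, at least 11.8-fold lower (adjusted p = 1.19e-05). Both are genes of mature enterocytes, and they moved in opposite directions. Of the 24 listed genes of intestinal epithelial differentiation, 6 were expressed enough to be tested. SI and SLC26A3 were called, and the other 4 were not. CDX2, an intestinal transcription factor, had 306, 348 and 289 in mCherry and 319, 387 and 330.1 in reverse, and KRT20, a keratin of differentiated colonocytes, 19.8, 21 and 19.2 and 22.9, 10.2 and 26.1; the groups overlapped in both.

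The 250 bases upstream of the RefSeq start (GRCh38.p14, read in the direction of the gene) are shown for these brush border genes, since they moved in opposite directions. DOCK2, which changed most, is shown as well. Capitals mark GTTAAT on either strand, the core of the motif bound by HNF1, a family of transcription factors of gut and liver.
SI, chr3:165078497-165078746, minus strand: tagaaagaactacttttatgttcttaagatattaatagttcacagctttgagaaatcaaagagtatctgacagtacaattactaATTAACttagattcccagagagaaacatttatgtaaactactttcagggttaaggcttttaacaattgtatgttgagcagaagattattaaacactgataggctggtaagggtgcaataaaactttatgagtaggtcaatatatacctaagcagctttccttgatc
SLC26A3, chr7:107803224-107803473, minus strand: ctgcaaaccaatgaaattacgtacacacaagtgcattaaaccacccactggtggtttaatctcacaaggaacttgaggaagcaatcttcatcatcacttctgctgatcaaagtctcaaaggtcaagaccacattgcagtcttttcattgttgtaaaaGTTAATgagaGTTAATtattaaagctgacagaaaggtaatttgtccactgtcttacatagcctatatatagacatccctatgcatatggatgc
DOCK2, chr5:169637025-169637274, plus strand: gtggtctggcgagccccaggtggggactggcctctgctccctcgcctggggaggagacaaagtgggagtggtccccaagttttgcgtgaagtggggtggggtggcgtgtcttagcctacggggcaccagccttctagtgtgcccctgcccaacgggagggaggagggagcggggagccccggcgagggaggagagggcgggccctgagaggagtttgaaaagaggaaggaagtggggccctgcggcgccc
The stretch upstream of SI held 1 match and that of SLC26A3 held 2, while DOCK2 had none in this window. Of 35116 RefSeq starts, 6.23% held the motif in the 250 bases upstream, searched on both strands. The stretch upstream of DOCK2 was rich in G and C (68.0%, 12 CpG), and those of SI (31.6%, 0 CpG) and SLC26A3 (37.6%, 1 CpG) were not. A match is a description of the sequence only, and the 2 genes that share it differed in direction.

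Among ion channels and transporters, KCNMB2, a regulatory subunit of the large-conductance calcium-activated potassium channel, had 122, 102 and 122 normalized reads in reverse and 0 in mCherry. It was at least 39.1-fold higher (adjusted p = 3.47e-08). The antisense gene KCNMB2-AS1 overlaps it and showed a log2 difference of -0.05 ± 0.12 (SE; adjusted p = 0.92), with means of 178.9 and 172.1 in mCherry and reverse. SLC5A10, a sugar transporter, had 10, 19 and 32 reads in reverse and 2, 1 and 1 in mCherry (log2 3.07 ± 0.53, adjusted p = 0.0027). It lost the call without reverse replicate 3, the library with the most reads of it.

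Of the ubiquitin ligases, RNF150 was at 70.8, 51.1 and 69.3 normalized reads in reverse with 1 read in mCherry, a ratio of 197, counting interval 35 to 7827. TRIM50 had 10, 16 and 20 reads against 0, 1 and 2 (adjusted p = 0.0133), and this call was lost without mCherry replicate 1 or 2 or reverse replicate 2 or 3. AGMO, an enzyme that cleaves ether lipids, had 14, 12 and 12 reads in reverse and none in mCherry, at least 4.25-fold higher (adjusted p = 0.00218). The remaining named increases were noncoding. FLG-AS1, antisense to the filaggrin gene, was at 51, 35.8 and 40.5 normalized reads in reverse and 0, 2.52 and 4.27 in mCherry (log2 4.02 ± 0.55, adjusted p = 0.000171). The long noncoding RNAs LINC00426 and LINC03010 had 18, 10 and 16 and 13, 11 and 15 reads in reverse and none in mCherry, at least 4.9-fold and 4.32-fold higher.

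A further set of higher genes was expressed at a lower level in mCherry and rose by 2 to 8 times. The following were chosen after their values were seen. KCTD16, an auxiliary subunit of GABA-B receptors, rose from 27.2, 33.6 and 30.9 normalized reads to 219.8, 177 and 191, a fold of 6.23 on the log2(value + 1) scale (adjusted p = 6.36e-08). COL17A1, the hemidesmosomal collagen of basal epithelia, rose from 24, 24.4 and 17.1 to 129, 118 and 160.1 (6-fold, adjusted p = 3.93e-05). LCP1, an actin-bundling protein of leukocytes that many carcinomas express, moved from 48, 63.9 and 60.8 to 207, 168 and 204 (3.32-fold, adjusted p = 1.06e-06). EMP1, a membrane protein of epithelia, had 100.3, 130.4 and 130.2 in mCherry and 289.6, 265 and 248 in reverse (2.23-fold, adjusted p = 1.25e-05). In all 4 every reverse library exceeded every mCherry library. With powers of 10 chosen without the group labels, TEK, SFRP4, RELN, FLG-AS1 and SLC5A10 among the increases given above, and ATP6V0A4 among the decreases, were no longer called.

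The largest decrease was in PIEZO2 (ENSG00000154864, chromosome 18, 10666483 to 11148762), a mechanically gated cation channel of touch receptors. It had 70, 62.2 and 85.3 normalized reads in mCherry and 0 in all reverse libraries, at least 24.5-fold lower (adjusted p = 5.75e-07). VIPR2 (ENSG00000106018, chromosome 7, 159028175 to 159144957), a receptor of vasoactive intestinal peptide, had 52.2, 49.6 and 36.3 in mCherry and again 0 in reverse, at least 15.5-fold lower (adjusted p = 1.98e-06). Both folds hold for values restored with the group labels. Without the labels, PIEZO2 had 67, 74 and 8 reads in mCherry and VIPR2 had 5, 59 and 34, and neither was tested. SV2C, a synaptic vesicle glycoprotein, was at 39.7, 83.3 and 51.2 in mCherry, where replicate 2 stood above the others, and had 2 reads in reverse. The ratio of mCherry to reverse was 91.5, counting interval 25 to 761 (adjusted p = 1.38e-05). Restored without the labels, SV2C had 0, 0 and 20 reads in reverse, a doubt the interval does not include.

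A pump and a receptor were also among the decreases. ATP6V0A4, a subunit of the proton pump of acid-secreting cells, fell from 55.4, 35.3 and 41.6 to 2.08, 6.14 and 3.6 (log2 -3.25 ± 0.43, adjusted p = 0.000108). As restored with the group labels, every mCherry library exceeded every reverse library. Without the labels, ATP6V0A4 had 53, 42 and 39 reads in mCherry and 20, 60 and 40 in reverse, and the groups overlapped. MRGPRX3, a receptor of the Mas-related family, had 34, 39 and 26 reads in mCherry and none in reverse, at least 10.8-fold lower.

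Of the 18 tested genes of the actin cytoskeleton list none was called by limma, and 1 had an unadjusted p under 0.05. Over all genes these shares were 0.712% and 9.56%. Called genes outside that list moved both ways. While DOCK2 and LCP1 were higher, 3 other genes of cytoskeletal regulation were lower as restored with the group labels. FMN1, formin 1, a nucleator of actin filaments, fell from 50.1, 41.2 and 70.4 normalized reads to 4.17, 10.2 and 13.5 (log2 -2.51 ± 0.32, adjusted p = 7.11e-05). NCKAP1L, the HEM1 subunit of the WAVE actin-regulating complex in blood cells, was at 59.5, 40.4 and 61.9 in mCherry and 7.29, 11.2 and 14.4 in reverse (log2 -2.22 ± 0.36, adjusted p = 0.00154). ARHGAP6, a GTPase-activating protein, had 35, 34 and 34 reads in mCherry and none in reverse, at least 11.4-fold lower (adjusted p = 2.36e-05). NCKAP1L and DOCK2 are both best known from blood cells, while PTPRC, CD3E and HBB were at 0 in both groups. As restored with the group labels, NCKAP1L and DOCK2 moved in opposite directions. Without the labels, NCKAP1L had 57, 48 and 58 reads in mCherry and 70, 110 and 160 in reverse, the direction of DOCK2.

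Of transcriptional regulators, CREB3L1, a membrane-bound factor released by cleavage under stress, stood at 73.1, 86.6 and 67.2 normalized reads in mCherry and 10.4, 21.5 and 15.3 in reverse (log2 -2.24 ± 0.25, adjusted p = 1.19e-05). CDYL2, a chromodomain protein that binds methylated histones, fell from 49.1, 51.3 and 49.1 to 4.17, 7.16 and 8.99 (log2 -2.76 ± 0.30, adjusted p = 1.04e-05). Apart from these regulators, DLEC1, a gene often silenced in carcinomas, had 43.9, 47.1 and 60.8 in mCherry and 8.33, 6.14 and 9.89 in reverse (log2 -2.51 ± 0.30, adjusted p = 2.34e-05). In these 3 genes, NCKAP1L and CFI the direction rests on how lost decimal marks were restored: with powers of 10 chosen without the group labels, the log2 differences were 0.99 for CREB3L1, 0.37 for CDYL2, 0.66 for DLEC1 and 0.98 for NCKAP1L, none of them called. CFI could not be tested in that way, and its likeliest reading there gave means of 48 normalized reads in mCherry and 80.1 in reverse. Choosing without labels draws the groups to 1 level by construction, and reads all 3 reverse counts of these 5 genes as multiples of 10. Choosing with labels draws the libraries of a group together and lets the groups differ, which favours low p-values in genes with a power in doubt. Of the 40 genes named by rule, 11 were not tested without labels, among them PIEZO2, VIPR2, FMN1, XDH, ARHGAP29-AS1, UGT2B7, TACR1, LINC00426 and TRIM50.

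Other decreases concerned secreted and metabolic proteins. CFI, the protease that inactivates complement C3b and C4b, had 52.2, 39.5 and 52.3 normalized reads in mCherry and 4.17, 8.18 and 11.7 in reverse (log2 -2.53 ± 0.34, adjusted p = 0.00012). XDH, xanthine dehydrogenase of purine breakdown, had 26, 32 and 30 reads in mCherry and none in reverse, at least 9.68-fold lower (adjusted p = 2.48e-05). Restored without the group labels, XDH had 26, 32 and 3 reads in mCherry and was not tested. ARHGAP29-AS1, a noncoding gene that overlaps ARHGAP29, was at 51.2, 39.5 and 23.5 normalized reads in mCherry and 8.33, 5.11 and 1.8 in reverse (log2 -2.78 ± 0.55, adjusted p = 0.0114). It was no longer called without mCherry replicate 1 or 2 or reverse replicate 2 or 3, and the sources used here do not say whether the counting used strand. Its host ARHGAP29 showed a log2 difference of -0.07 ± 0.05 (adjusted p = 0.741).

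**Figure D3:**
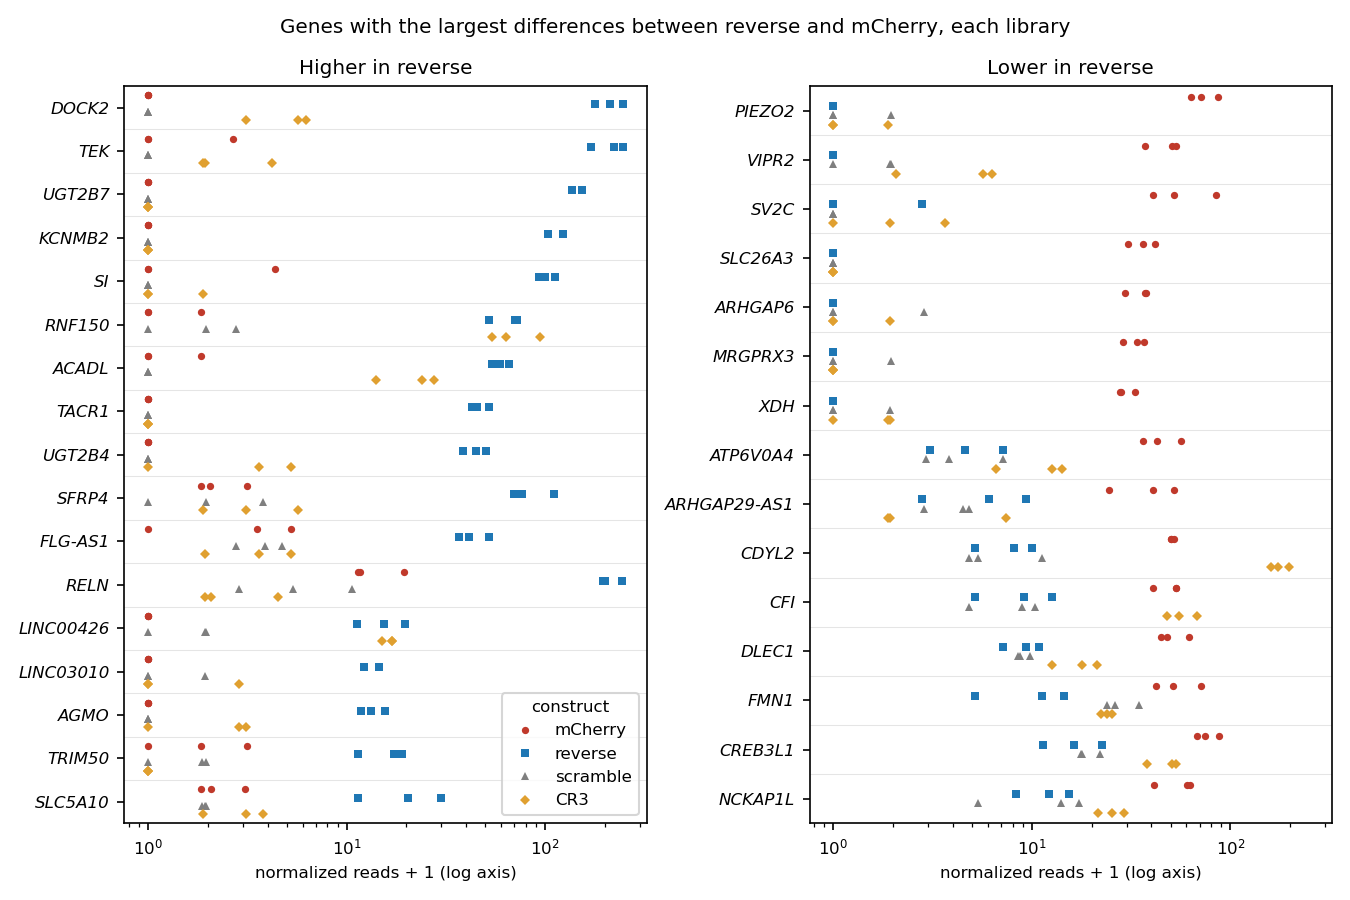
Normalized reads plus 1 (log axis) of the reported genes with the largest differences between reverse and mCherry, ordered by size, with 1 mark per library of the mCherry, reverse, scramble and CR3 groups. Marks at 1 are libraries without a read. Values are those restored with the group labels. Blue squares stand to the right of all red circles in the left panel and to the left of them in the right panel.

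The scramble and CR3 libraries place these values. Their comparisons with reverse or mCherry share libraries with the one described here, so levels are given side by side. In the 8 higher genes without a read in mCherry, scramble means ran from 0 to 0.631 normalized reads and CR3 means from 0 to 15.3. Over the 28 genes at least 2-fold higher, the median mean was 61.2 in reverse, 1.06 in mCherry, 0.768 in scramble and 2.43 in CR3. DOCK2 was at 0 in scramble and 4.02 ± 1.67 (SD, n = 3) in CR3, and UGT2B7, KCNMB2 and TACR1 were at 0 in both. Some were higher in CR3, among them RNF150 with 69.6 ± 20.8, ACADL with 20.8 ± 6.96 and LINC00426 with 15.3 ± 1.08, the last near its reverse mean of 14.4. In the 17 lower genes without a read in reverse, scramble means ran from 0 to 0.935 and CR3 means from 0 to 68.3. The median mean of the 41 genes at least 2-fold lower was 32 in mCherry, 1.02 in reverse, 0.631 in scramble and 1.94 in CR3. PIEZO2 had 0.32 ± 0.554 in scramble and 0.292 ± 0.506 in CR3, and SLC26A3 was at 0 in both. CDYL2 stood at 6.17 ± 3.58 in scramble and 176 ± 19.5 in CR3, above its mCherry level of 49.8 ± 1.28. CFI had 56 ± 10.2 in CR3, and FMN1 had 27.2 ± 5.65 in scramble, between its mCherry and reverse levels.

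In the same model, DOCK2 was at least 76.3-fold higher in reverse than in scramble (adjusted p = 1.05e-09) and SI at least 36.1-fold (adjusted p = 4.19e-07), both being at 0 in scramble and set against the floor of 3 reads per library. Among the lower genes, the log2 difference from scramble was -0.32 for PIEZO2 (adjusted p = 0.931), -0.24 for CREB3L1 (adjusted p = 0.874) and 0.15 for CFI (adjusted p = 0.956). FMN1 was lower in reverse than in scramble, at log2 -1.56 (adjusted p = 0.0341). So was SLC16A4, a transporter of the monocarboxylate family chosen here after its values were seen, at -2.40 (adjusted p = 0.00581), with means of 16.6 in mCherry, 4.78 in reverse and 24.5 in scramble. Over all genes tested, 43 (0.292%) were called in reverse against scramble, 225 (1.53%) in scramble against mCherry and 3847 (26.1%) in CR3 against mCherry.

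Abundant transcripts changed less. INIP (ENSG00000148153, chromosome 9, 112683926 to 112718236), a subunit of the SOSS complex that binds single-stranded DNA at breaks, shared the smallest adjusted p of all genes with DOCK2. It had 1669, 1783 and 1699.5 normalized reads in mCherry and 893, 852 and 821 in reverse, 2.01-fold lower (log2 -1.005 ± 0.058, adjusted p = 8.05e-10). The spread within each group was small beside this gap, and scramble and CR3 lay at 876 ± 2.27 and 788 ± 29.4. TLE3, a Groucho-type corepressor chosen here after its values were seen, fell from 1731, 1772 and 1503 to 1049, 1024 and 1144 (log2 -0.64 ± 0.07, adjusted p = 1.13e-05), with scramble at 1037 ± 21.5. VIM, vimentin, the intermediate filament of mesenchymal cells, was at 88.8, 96.7 and 107 in mCherry and 58.3, 61.4 and 74.7 in reverse (log2 -0.59 ± 0.14, adjusted p = 0.0466). It lost the call in 11 of 18 alternatives, among them the omission of any mCherry library or of reverse replicate 1 or 2. TFRC, the transferrin receptor that brings iron into cells, rose from 6480.2, 6942 and 6994 to 8128, 7622 and 7800.1 (log2 0.21 ± 0.05, adjusted p = 0.0408). Its call too was lost in 11 of 18 alternatives, among them the omission of mCherry replicate 1 or 2 or of any reverse library.

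Transcripts of the mitochondrial genome were lower in reverse. This small circular genome encodes subunits of the respiratory chain and ribosomal RNAs for its own translation. Of 15 such genes tested, 9 were called lower, against 0.448% of all genes, and none higher, the median log2 difference was -0.35, and 14 of 15 were negative. MT-CYB, cytochrome b of complex III, had 35364, 39243 and 36396 normalized reads in mCherry and 24535, 28466 and 26129 in reverse (log2 -0.49 ± 0.09, adjusted p = 0.00326). MT-ND3 and MT-ND2, subunits of complex I, fell as well. MT-ND3 went from 15293, 15082 and 15650.0 to 12510.0, 12906 and 11229 (log2 -0.33 ± 0.06, adjusted p = 0.0046) and MT-ND2 from 39213, 38711 and 39691 to 28859, 33323 and 25522 (log2 -0.43 ± 0.08, adjusted p = 0.0066). MT-ND1, MT-ND4, MT-ND4L, MT-ND5, MT-CO2 and MT-ATP6 were the other 6 called. The ribosomal RNAs, which carry short tails and are partly lost in polyA libraries, had log2 differences of -0.08 ± 0.08 (MT-RNR1, adjusted p = 0.795) and -0.18 ± 0.07 (MT-RNR2, adjusted p = 0.435). MT-ND6, the one protein gene read from the light strand, had 2299, 1348 and 2869.8 in mCherry and 2601, 3272 and 2889 in reverse (log2 0.49 ± 0.21, adjusted p = 0.467), with the groups overlapping.

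Reads from the mitochondrial genome made up 2.29%, 2.37% and 2.31% of mCherry replicates 1 to 3 and 1.71%, 1.99% and 1.74% of the reverse libraries. In scramble they were 1.78%, 1.36% and 1.51%, and in CR3 2.56%, 2.29% and 2.21%. The nuclear pseudogene MTATP6P1, which shares sequence with the mitochondrial genome, was called lower too (log2 -0.41 ± 0.09), and reads may have been split between them. The 31 nuclear-encoded genes of oxidative phosphorylation had a median log2 difference of -0.01 with none called by limma and 3 at an unadjusted p under 0.05. Over all genes these shares were 0.712% and 9.56%. How many of the 9 calls stood depended on single libraries. It was 5 without mCherry replicate 1 and also without mCherry replicate 2, 3 without reverse replicate 1, 10 without reverse replicate 2, 9 without mCherry replicate 3 and 1 without reverse replicate 3. None were called by limma without the mean-variance trend, where 12 were lower at an unadjusted p under 0.05 and the lowest adjusted p was 0.174, and limma voom on the rebuilt reads called 10.

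**Figure D4:**
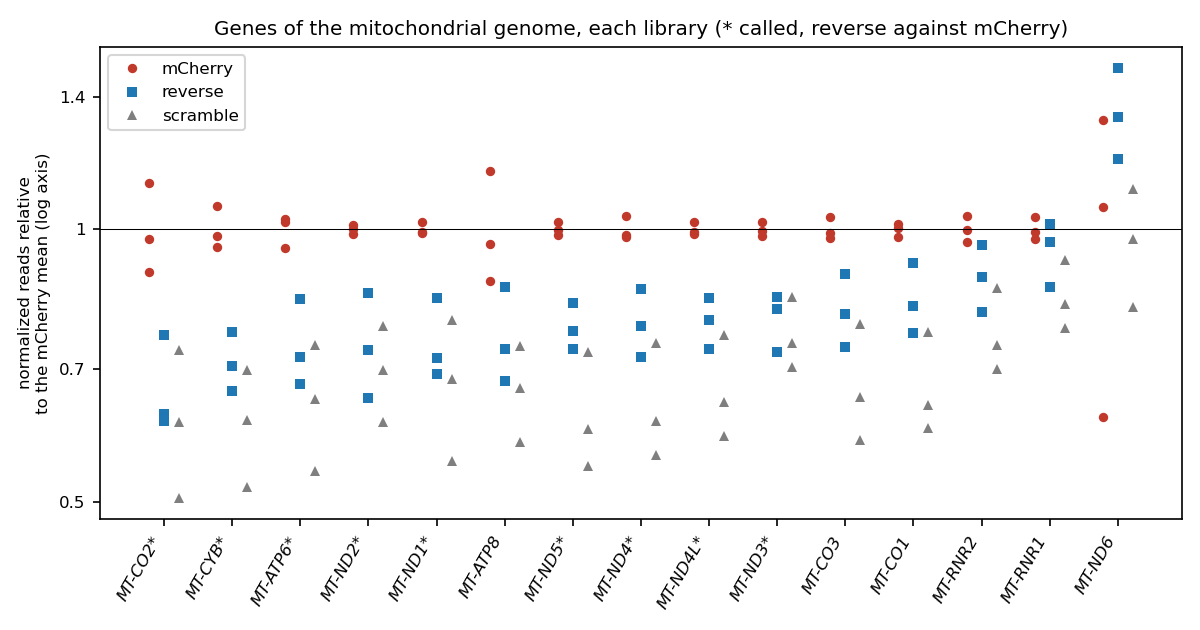
Normalized reads of the 15 genes of the mitochondrial genome relative to each gene's mCherry mean (log axis), 1 mark per library of mCherry, reverse and scramble. Asterisks mark the 9 genes called in reverse against mCherry. Reverse squares lie below the mCherry circles except in MT-RNR1 and MT-ND6.

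Of 40 gene lists, 35 held no called gene, and in 34 the median log2 difference lay within 0.1 of 0. Over all genes 0.712% were called, and the lists held 6 to 61 tested members. At that share most lists would hold none, so their lack of calls does not show that they were unchanged. Over all genes, 9.56% had an unadjusted p under 0.05, the share beside which the counts below stand. Among 20 MYC targets, 10 had such a p, all positive, and 1, TFRC, was called. The median was 0.12 and 19 of 20 were positive, where 7236 of all 14742 genes were. MYC itself was at 1997, 1914 and 1789 normalized reads in mCherry and 2107, 2329 and 2264 in reverse (log2 0.23 ± 0.06, adjusted p = 0.0562). Of 30 genes of ribosome biogenesis and RNA polymerase I, 12 had such a p, all positive, with a median of 0.11 and none called. UTP20, a factor of small subunit assembly, had the lowest p among them, with 998, 976 and 1241 in mCherry and 1363, 1376 and 1302 in reverse (log2 0.34 ± 0.09, adjusted p = 0.0914). The 17 cytosolic chaperones had a median of 0.10, with 7 at an unadjusted p under 0.05 and none called. Without mCherry replicate 3, 3 members were called higher in each of these lists: HSPD1, TFRC and PPAT among MYC targets, POLR1A, DDX21 and UTP20 among genes of ribosome biogenesis, and DNAJB4, CHORDC1 and HSPH1 among chaperones.

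On the other side, 26 of 29 interferon response genes were negative, with a median log2 difference of -0.16. Of these, 11 had an unadjusted p under 0.05 and none was called. IFIT1, an antiviral protein that binds foreign RNA, had 335, 294 and 314 normalized reads in mCherry and 247, 206 and 209.6 in reverse without overlap (log2 -0.51 ± 0.12, adjusted p = 0.0532). IFI6, an interferon-induced protein of the ER and mitochondria, had 947, 874 and 815 and 677, 574 and 639 (log2 -0.48 ± 0.13, adjusted p = 0.112). Summed over the list, mCherry libraries held 5.062e+04, 5.189e+04 and 4.745e+04 and reverse libraries 4.511e+04, 4.553e+04 and 4.544e+04. Without mCherry replicate 3, 4 of the 29 were called lower, among them IFI6 and IFIT1.

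Targets of HIF, the factor that answers low oxygen, were negative in 19 of 20, with a median of -0.12, 5 at an unadjusted p under 0.05 and none called. Their sum was 3.132e+04, 3.292e+04 and 2.734e+04 in mCherry and 2.737e+04, 2.417e+04 and 3.014e+04 in reverse, so replicate 3 of mCherry lay among the reverse libraries. Without that replicate SLC2A1, LOXL2 and NDRG1 were called lower. Its part in the result was not tested further. The 14 Wnt/beta-catenin targets tested, of interest in a line with an activated Wnt pathway, had a median of -0.05, 2 at an unadjusted p under 0.05 and none called. The 20 p53 targets had a median of -0.03, with 2 at such a p and none called. The 30 genes of Mediator, BET and p300 coactivators, which act at enhancers, had a median of 0.04, with 5 at such a p and none called.

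**Figure D5:**
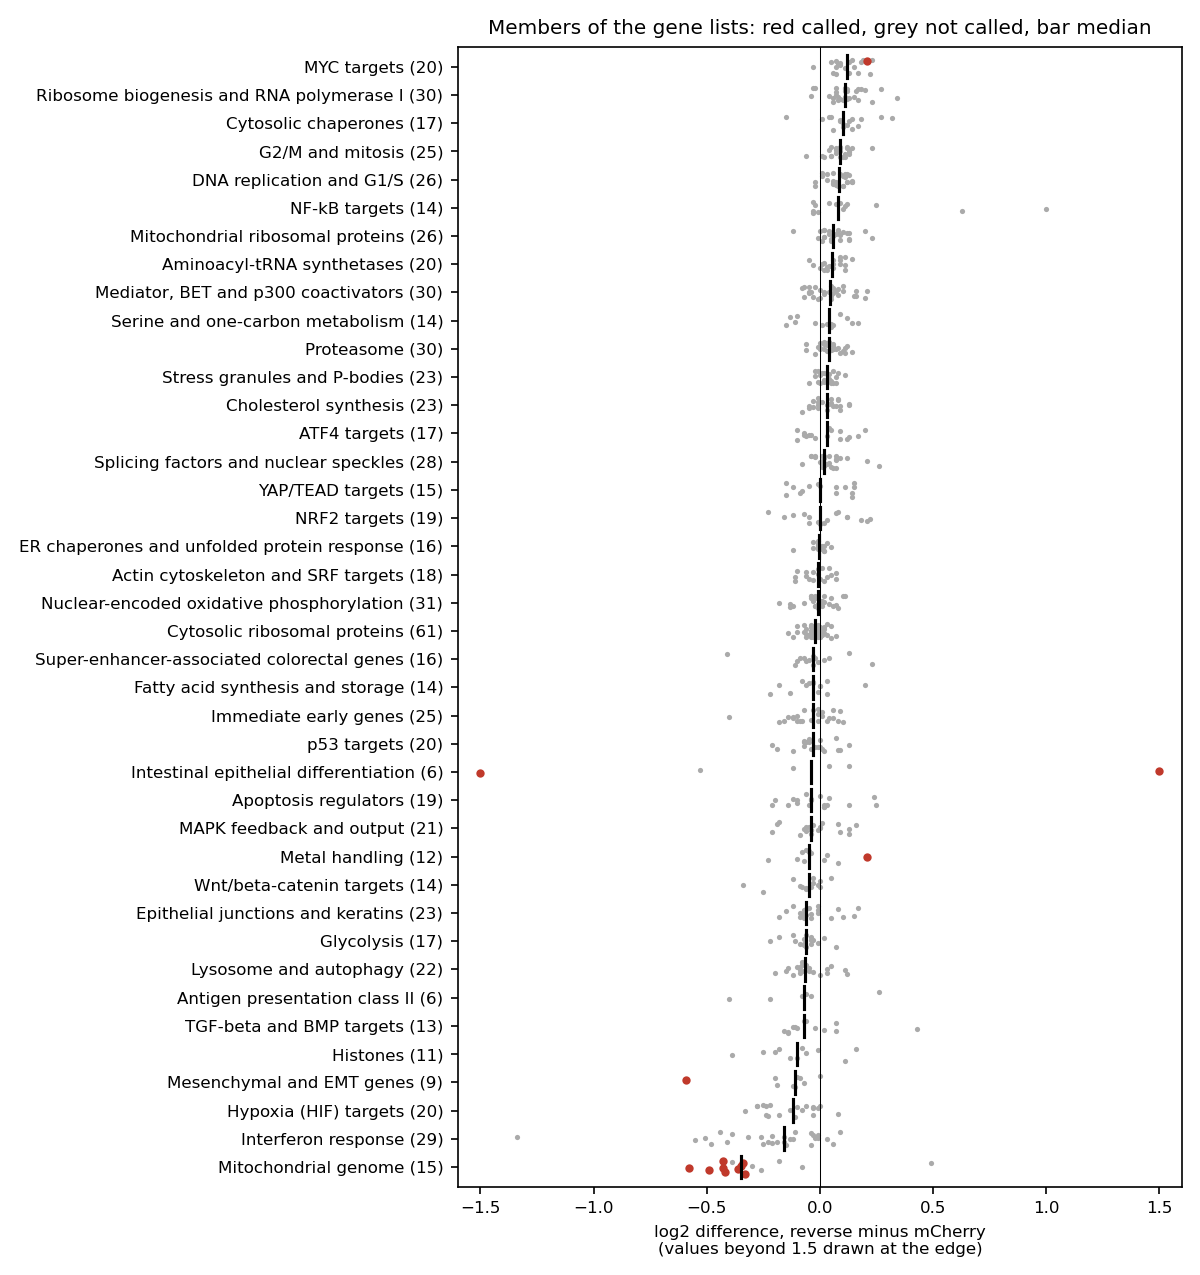
Log2 differences, reverse minus mCherry, of the members of 40 gene lists with the number of members tested in brackets. Red points are called, grey points are not, and bars are medians. The mitochondrial genome has 9 red points and a median of -0.35, and 34 lists have medians within 0.1 of 0.

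Outside the mitochondrial genome, medians of the 23 chromosomes examined lay between -0.025 (chromosome 19) and 0.028 (chromosome 13), and medians of 277 blocks of 50 neighbouring genes between -0.073 and 0.064. No block held more than 3 called genes. The largest shares of called genes were 2.53% on chromosome 13 (5 higher and 1 lower of 237) and 2.06% on chromosome 4 (4 higher and 7 lower of 535), against 0.712% over all genes. No gene was called on 5 chromosomes (8, 19, 20, 21 and 22), which held 2392 of the genes tested. Of these, 179 had an unadjusted p under 0.05 with limma, and limma voom called 1. Genes near the most changed ones mostly did not pass the test. Each named gene was paired with each of the 2 closest tested genes on either side, and 3 of 98 pairs had a called neighbour. These were the UGT2B7 and UGT2B4 pair, counted from both sides, and EGF near CFI. EGF, epidermal growth factor, was at 43.9, 62.2 and 56.5 normalized reads in mCherry and 17.7, 14.3 and 18.9 in reverse (log2 -1.61 ± 0.24, adjusted p = 0.000447). GAR1, the one tested gene between them, had a log2 difference of 0.09 ± 0.09 (adjusted p = 0.8).

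By kind of gene, 93 of the called were protein coding, among 12560 tested (0.74%), and 9 were long noncoding RNAs, among 1191 (0.756%). By level, the share called was 2.74% of 1277 genes averaging under 20 normalized reads, 1.11% of 3501 from 20 to 200, 0.214% of 7476 from 200 to 2000 and 0.603% of 2488 above. The filter lets a gene of low mean pass when it is high in 1 group only. The share and the sizes of change in the lowest class are raised by that selection. Of the called genes, 35 of 35, 33 of 39, 1 of 16 and 0 of 15 in these classes changed at least 2-fold. The median standard error of the log2 difference fell from 0.365 in the lowest class to 0.052 in the highest, so small changes of low genes were not detectable at this depth.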

How the data were processed

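RNA sequencing of HCT116 cells was analysed from 1 deposited table of 12 libraries, 3 per construct, grouped by sample title. Per the submitters' processing notes, the tools were STAR, featureCounts, Salmon, DESeq2, edgeR, FastQC, MultiQC, Trim Galore and GATK, and the build was GRCh38. The sources used here give no version, role or strand setting. The deposited values, of a unit other than plain counts, are reads divided by a size factor per library, as the values show, but from 1 upward their decimal mark was lost.

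Each of the 130380 non-zero cells of the 6 libraries was a whole multiple of its library's value of 1 read (100.0%, tolerance 1e-07) at some power of 10. Powers were chosen per gene by likelihood with group labels (dispersion 0.015). With the mark hidden, 98.46% of the 18138 cells of the 12 libraries that kept it were read right. All of these hold 1 read, so they do not check higher counts or genes that differ between groups. In the simulated data described below, 99.91% of non-zero cells of the 6 libraries were read correctly, and 94.38% in the changed genes. Of the 15015 genes passing the filter, 273 had a cell for which a second power was less than 20 times less likely and were left out. A 0 needs no rebuilding.

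The other 14742 were fitted in R 4.3.3 with limma 3.58.1 on log2(normalized reads + 1) under a mean-variance trend, using 4 group means over 12 libraries and Benjamini-Hochberg adjustment, two-sided. Fold changes therefore understate those of low genes. Genes without reads in a group are compared with a floor of 3 reads per library, and those with 1 to 3 reads are given with an exact 95% counting interval. Both take the powers chosen with group labels as given. Data were also simulated, with a dispersion of 0.01 in all genes and no library set apart as mCherry replicate 3 was. The rates found there need not hold for the real libraries. On these simulated data, 100% of 4-fold and 91.2% of 2-fold increases were called. Of 4-fold and 2-fold decreases 93.9% and 84.8% were called, and of 14531 unchanged genes 5 were called. Only 9.09% of 10-fold decreases were, since most became ambiguous and were not tested.

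Named genes are called genes with a symbol, groups that do not overlap and a mean of at least 20 normalized reads: the 12 largest changes each way, the 6 smallest p, and up to 3 per gene list, plus 5 each way below 20. Some genes that met this rule or belong to the lists are not reported here. Members and lists were chosen with earlier results of these data known. Annotation came from GENCODE release 29, and 52526 identifiers had a symbol. Figures came from matplotlib 3.10.9 and all other steps from Python 3.11.15 (pandas 2.3.3, scipy 1.17.1, numpy 2.4.6).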

Additional observations from a re-analysis of the deposited data

How the results depend on the processing

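The count of 105 genes, 39 higher and 66 lower, was recomputed under 18 alternatives. Without single libraries it ran from 76 to 339, higher genes from 26 to 185 and lower genes from 49 to 154, the largest values being those without mCherry replicate 3. A minimum of 50 reads in 3 libraries gave 41 (21 higher, 20 lower), and 52 of the 64 calls lost were no longer tested. A minimum of 1 read in 1 library gave 103 lower genes. Powers of 10 chosen without group labels gave 49 (17 higher, 32 lower). Limma without the mean-variance trend gave 77, and voom 108. A fit of only the 6 reverse and mCherry libraries gave 123 (53 higher, 70 lower), 97 of them shared with the 105. The mitochondrial genes called lower ran from 1 to 10 without single libraries and were 0 without the trend, a choice of model that was applied to these genes after seeing the data. In no other alternative did these counts move by over 1.5 times. The 40 named genes kept their direction wherever they were tested, except 4 of the 29 tested with powers chosen without labels: CDYL2 (0.37), DLEC1 (0.66), CREB3L1 (0.99) and NCKAP1L (0.98). The other 11 were not tested there, and CFI ran the other way in its likeliest reading. Without labels 22 of the 40 were read otherwise in at least 1 library. Of the 40, 33 stayed called without each single library. Same-numbered libraries did not deviate together (correlations -0.054, 0.016 and -0.089), so numbers do not pair samples. A replicate block gave 93 genes, 33 higher and 60 lower, and 8 mitochondrial genes.

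Keeping the ambiguous genes gave 118 calls, 46 higher and 72 lower. Low counts limit small changes of weakly expressed genes.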

Other observations

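Among the 273 genes left out because a power of 10 was in doubt, 13 would be called if their likeliest reading were kept, 7 higher and 6 lower. ERBB4, a receptor tyrosine kinase for neuregulins, then had 1, 3 and 1 reads in mCherry replicates 1 to 3 and 221, 175 and 245 in reverse. RAB9B, a small GTPase of endosomes, had 2, 4 and 1 reads in mCherry and 136, 163 and 150 in reverse. PTPRZ1, a receptor phosphatase of glia, had 67, 88 and 57 in mCherry and 10, 4 and 9 in reverse, and CD36, a scavenger receptor for fatty acids, 18, 31 and 20 against 1, 1 and 3. POSTN, a matrix protein, had no read in mCherry and 10, 10 and 11 in reverse. These examples were chosen after their values were seen, and a reading 10-fold off in 1 group would remove or create such differences.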
